A study of Mus musculus with 90 samples.

Results

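A set of 10 genes that mark the endothelium of the liver was followed in zileuton-treated and vehicle-treated outbred mice: Stab1, Stab2, Clec4g, Lyve1, Oit3 and Gpr182, which mark the sinusoids, Kdr and Pecam1, which most endothelial cells carry, and Vwf and Selp, which are strongest in larger or activated vessels. They are 10 of the 18223 genes in the deposited tables, were chosen by symbol, and all 10 were present and passed the low-count filter. The animals were female Diversity Outbred (J:DO) mice, an outbred stock bred so that every animal inherits a different mosaic of its founder strains, aged 6 to 20 weeks. A group of 49 mice received zileuton, an inhibitor of the leukotriene-forming enzyme 5-lipoxygenase, by mouth at 300 mg/kg once a day for 7 days, and 41 mice received sterile distilled water by the same route. Every animal gave 1 RNA sequencing library from 25 mg of whole liver. Agouti, white and black coats were held by 34, 9 and 6 zileuton animals, and by 29, 6 and 6 vehicle animals.

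The liver sinusoids are lined by a fenestrated endothelium without a continuous basement membrane, which lets plasma reach hepatocytes directly. These cells are among the most active scavengers of the body and take up hyaluronan, collagen fragments, modified lipoproteins and small immune complexes through a characteristic set of receptors. The endothelium of portal and central veins and of arteries is continuous, stores von Willebrand factor in secretory granules, and can display P-selectin and other adhesion molecules to passing leukocytes. In whole liver, where hepatocyte RNA dominates, fewer endothelial cells and less RNA per endothelial cell cannot be told apart.

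The promoters of members that differed after zileuton, and of Kdr and Stab1, whose levels were closely correlated across animals, are shown first. RefSeq promoter windows of build GRCm38.p6 (250 bases before to 50 after the start) were held for 5 of the 10 members, namely Stab1, Stab2, Clec4g, Kdr and Selp. Selp, which was higher after zileuton, lies on the plus strand at chr1:164115014-164115313, Clec4g, which was lower, on the minus strand at chr8:3720602-3720901, and Kdr and Stab1 on the minus strand at chr5:75978406-75978705 and chr14:31168592-31168891. Capitals mark matches, on either strand, to 3 short motifs. The core bound by ETS factors, the family of many endothelial regulators, was searched as AGGAAG. The core of GATA factors was searched as GATAA. The TATA box, where the general transcription machinery can assemble, was searched as TATAAA. A kappa B motif was also searched and is not reported here. Only the ETS matches overlap each other, at 1 place in Clec4g.
Selp: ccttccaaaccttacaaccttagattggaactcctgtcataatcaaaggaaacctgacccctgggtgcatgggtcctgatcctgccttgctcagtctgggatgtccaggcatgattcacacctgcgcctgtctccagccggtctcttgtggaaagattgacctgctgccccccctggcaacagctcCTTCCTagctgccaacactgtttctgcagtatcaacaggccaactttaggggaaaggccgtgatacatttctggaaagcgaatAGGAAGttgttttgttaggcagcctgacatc
Clec4g: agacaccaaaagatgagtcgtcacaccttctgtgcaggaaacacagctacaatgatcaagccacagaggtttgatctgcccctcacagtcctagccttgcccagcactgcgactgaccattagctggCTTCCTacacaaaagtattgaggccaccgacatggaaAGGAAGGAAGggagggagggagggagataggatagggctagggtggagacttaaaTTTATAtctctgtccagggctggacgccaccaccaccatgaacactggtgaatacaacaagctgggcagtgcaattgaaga
Kdr: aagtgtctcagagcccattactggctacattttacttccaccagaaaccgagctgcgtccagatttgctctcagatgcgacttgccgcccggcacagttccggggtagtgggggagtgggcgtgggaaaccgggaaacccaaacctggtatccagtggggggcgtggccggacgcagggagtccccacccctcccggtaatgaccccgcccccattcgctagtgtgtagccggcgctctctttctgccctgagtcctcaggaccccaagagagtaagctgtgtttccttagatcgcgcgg
Stab1: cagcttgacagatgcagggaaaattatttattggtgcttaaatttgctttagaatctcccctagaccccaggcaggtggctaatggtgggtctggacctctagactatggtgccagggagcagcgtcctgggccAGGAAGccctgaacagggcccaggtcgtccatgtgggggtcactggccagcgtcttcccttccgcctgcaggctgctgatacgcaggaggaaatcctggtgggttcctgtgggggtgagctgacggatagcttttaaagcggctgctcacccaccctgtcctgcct
Selp held 2 ETS matches, which begin 64 bases before and 19 bases after the start. Clec4g held 3 ETS matches and a TATA match that begins 31 bases before the start. This TATA match reads TTTATA in the window shown, so the searched letters TATAAA lie on the other strand. Stab1 and Stab2 held 1 ETS match each, and Kdr held none of the 3 sets of letters in this window. None of the 5 windows held the searched letters GATAA. The shorter letters GATA were not searched and do stand in windows shown above, such as those of Clec4g, Selp and Stab1. Among 32851 promoter windows of this length, 35.4% held the ETS letters, 25.4% the letters GATAA and 13.6% the TATA letters. These matches are letters in a window and say nothing on binding.

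Levels were compared between genes per kilobase of merged annotated exons. In zileuton livers Clec4g stood highest at 14.3 ± 3.20 CPM per kb (CPM, counts scaled by library size with TMM factors; SD, n = 49), followed by Oit3 at 7.11 ± 1.95 CPM per kb. In vehicle livers Clec4g had 16.3 ± 3.21 and Oit3 6.75 ± 1.55 CPM per kb (SD, n = 41). Stab2, Gpr182, Stab1, Kdr, Lyve1 and Pecam1 came next, in this order in both groups. They averaged 4.25, 3.91, 3.34, 2.86, 2.78 and 2.40 CPM per kb in zileuton livers, against 4.14, 3.92, 3.20, 3.11, 2.50 and 2.26 CPM per kb in vehicle livers, and each differed from its neighbour in the order by less than the larger of their SDs. Selp and Vwf were lowest, at 0.620 ± 0.475 and 0.457 ± 0.182 CPM per kb in zileuton livers and 0.373 ± 0.0996 and 0.353 ± 0.134 CPM per kb in vehicle livers. Clec4g from Oit3, Oit3 from Stab2 and Pecam1 from Selp were the neighbours separated by more than the SD of either gene in both groups.

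Zileuton was compared with vehicle in an edgeR quasi-likelihood fit over all 13248 genes tested, and calls were made at an adjusted p under 0.05 (Benjamini-Hochberg). All adjusted p-values on exposure below come from this fit. Of the members, 3 were called, Selp and Vwf higher and Clec4g lower after zileuton, and the other 7 were not. This is 3 of 10 members, beside a background of 29.3% of all genes tested (14.4% called higher and 14.8% called lower), so the share called did not set the members apart. The median log2 fold change was 0.07 over the members and −0.01 over all genes tested.

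**Figure D1:**
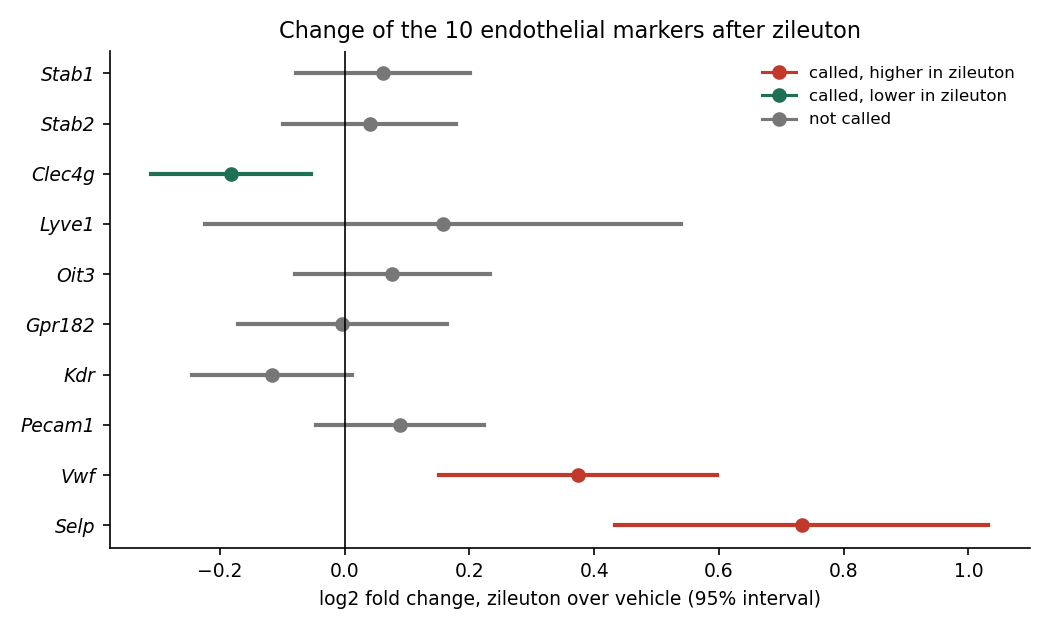
Fold change of each member, zileuton over vehicle, on the log2 scale (point) with its 95% interval (line), from the fit over all genes. Selp (0.73) and Vwf (0.37) lie above 0, Clec4g (−0.18) lies below 0, and the intervals of the other 7 include 0.

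Stabilin-1, stabilin-2, LYVE-1 and LSECtin are among the receptors by which sinusoidal endothelium binds waste and glycans, and of the genes of these 4 only Clec4g was called. Clec4g (chr8:3707064-3720651, minus strand, GENCODE M21 on GRCm38) encodes LSECtin, a C-type lectin of sinusoidal endothelium. It ranged over 21.6, 34.8 and 54.03 CPM (lowest, median, highest) in zileuton livers, against 25.7, 39.1 and 55.5 CPM in vehicle livers. The groups overlapped over most of their range, but 34 of 49 zileuton animals were below the vehicle median and 6 were below the lowest vehicle animal. The log2 fold change was −0.18 ± 0.064 (SE), a decrease of 11.9% (adjusted p = 0.0236). The direction was lower within all 8 runs of animal numbers (set out below), but unevenly. The difference in mean log2 CPM was −0.07, −0.04 and −0.02 in runs 2, 3 and 4, and −0.23 to −0.41 in the other runs. The call was lost in 9 of 25 other settings, among them without runs 1, 5, 6 or 8, in agouti animals alone (adjusted p = 0.150) and without the 9 shallowest libraries (adjusted p = 0.0732).

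Stab1 (chr14:31139013-31168641, minus strand) encodes stabilin-1, a scavenger receptor shared with some macrophages. It had 19.4, 33.3 and 53.5 CPM in zileuton livers and 17.1, 31.8 and 47.7 CPM in vehicle livers (lowest, median, highest), and its log2 fold change was 0.06 ± 0.070 (adjusted p = 0.552). Stab2 (chr10:86841198-87008025, minus strand) encodes stabilin-2, the main endocytic receptor for hyaluronan. It had 22.8, 35.3 and 56.6 CPM in zileuton livers and 15.8, 37.8 and 50.9 CPM in vehicle livers, with a log2 fold change of 0.04 ± 0.070 (adjusted p = 0.716). The 95% intervals of these fold changes ran from −0.08 to 0.20 for Stab1 and from −0.10 to 0.18 for Stab2.

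Lyve1 (chr7:110850607-110863239, minus strand) encodes a hyaluronan receptor of sinusoidal and lymphatic endothelium. Animals differed most in this member in vehicle livers, where its coefficient of variation was 59.0%, beside 65.5% in zileuton livers. It ran over 1.46, 7.001 and 25.8 CPM in zileuton livers and 1.22, 6.40 and 21.6 CPM in vehicle livers. The log2 fold change of 0.16 ± 0.19 was not called (adjusted p = 0.585), and its interval, −0.22 to 0.54, was the widest among the members not called. Prox1, the regulator of lymphatic identity that hepatocytes also make, had a log2 fold change of −0.02 ± 0.077 (adjusted p = 0.857), and none of the 3 lymphatic markers tested was called by edgeR or by DESeq2 (1 at an unadjusted p under 0.05, Ccl21a, a lymphatic chemokine gene).

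Oit3 (chr10:59422958-59441778, minus strand) encodes a secreted protein with a zona pellucida domain that is made in sinusoidal endothelium. It had 8.71, 19.7 and 30.97 CPM in zileuton livers and 11.2, 19.3 and 29.8 CPM in vehicle livers, and 25 of 49 zileuton animals were above the vehicle median. Its log2 fold change was 0.08 ± 0.079 (adjusted p = 0.504). Gpr182 (chr10:127747276-127751732, minus strand) encodes a scavenging chemokine receptor of sinusoidal and lymphatic endothelium. It had 6.16, 15.3 and 32.1 CPM in zileuton livers and 6.58, 15.8 and 21.1 CPM in vehicle livers, so the upper end was higher after zileuton, where 5 animals passed the highest vehicle animal, while the medians lay close together. Its log2 fold change was 0.00 ± 0.084 (adjusted p = 0.980), with an interval from −0.17 to 0.16.

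Kdr (chr5:75932827-75978458, minus strand) encodes VEGFR2, the main signalling receptor for VEGF-A. It had 14.995, 24.7 and 42.2 CPM in zileuton livers and 18.3, 28.03 and 38.4 CPM in vehicle livers. Its log2 fold change of −0.12 ± 0.065 was not called (adjusted p = 0.172, interval −0.25 to 0.01), with lower means within 6 of 8 runs. Pecam1 (chr11:106654217-106750628, minus strand) encodes CD31, a junctional adhesion molecule of all endothelium and of platelets. It had 7.62, 14.3 and 23.5 CPM in zileuton livers and 8.71, 13.9 and 22.1 CPM in vehicle livers, and its log2 fold change was 0.09 ± 0.068 (adjusted p = 0.341).

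Vwf and Selp, the members strongest in larger or activated vessels, were both higher after zileuton. Other genes of such vessels did not share this as a list. Of 16 tested, 1 was called higher and 1 lower, with a median log2 fold change of −0.10. Vwf (chr6:125546774-125686679, plus strand) encodes von Willebrand factor, which tethers platelets and carries clotting factor VIII. It had 3.05, 6.56 and 17.7 CPM in zileuton livers, against 2.60, 5.30 and 12.2 CPM in vehicle livers. Although the groups overlapped, 38 of 49 zileuton animals were above the vehicle median and 5 were above the highest vehicle animal. The log2 fold change was 0.37 ± 0.11, or 1.30-fold (adjusted p = 0.00684). Vwf was higher in zileuton animals within 5 of 8 runs, and without run 4, where the difference was 0.99 on the log2 scale, it was 0.25 over the remaining animals and no longer called (adjusted p = 0.109). The call was also lost in agouti animals alone (adjusted p = 0.0560).

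Selp (chr1:164115264-164150026, plus strand) encodes P-selectin, the adhesion receptor that starts leukocyte rolling. It had 0.747, 2.20 and 13.9 CPM in zileuton livers, against 0.892, 1.62 and 3.13 CPM in vehicle livers, from 17 to 273 counts per zileuton library and 17 to 81 counts per vehicle library. The highest 16 zileuton animals passed every vehicle animal, came from 6 of 8 runs and held all 3 coats, while 4 zileuton animals were below the lowest vehicle animal. The log2 fold change was 0.73 ± 0.15, or 1.66-fold (adjusted p = 6.63e-05). Within runs the difference was positive in 6 of 8 and ran from −0.30 in run 5, with 2 zileuton and 6 vehicle animals, to 1.11 in run 6, with 4 zileuton and 5 vehicle animals. Without the highest animal, zileuton replicate 29, the log2 fold change was 0.61 and still called.

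**Figure D2:**
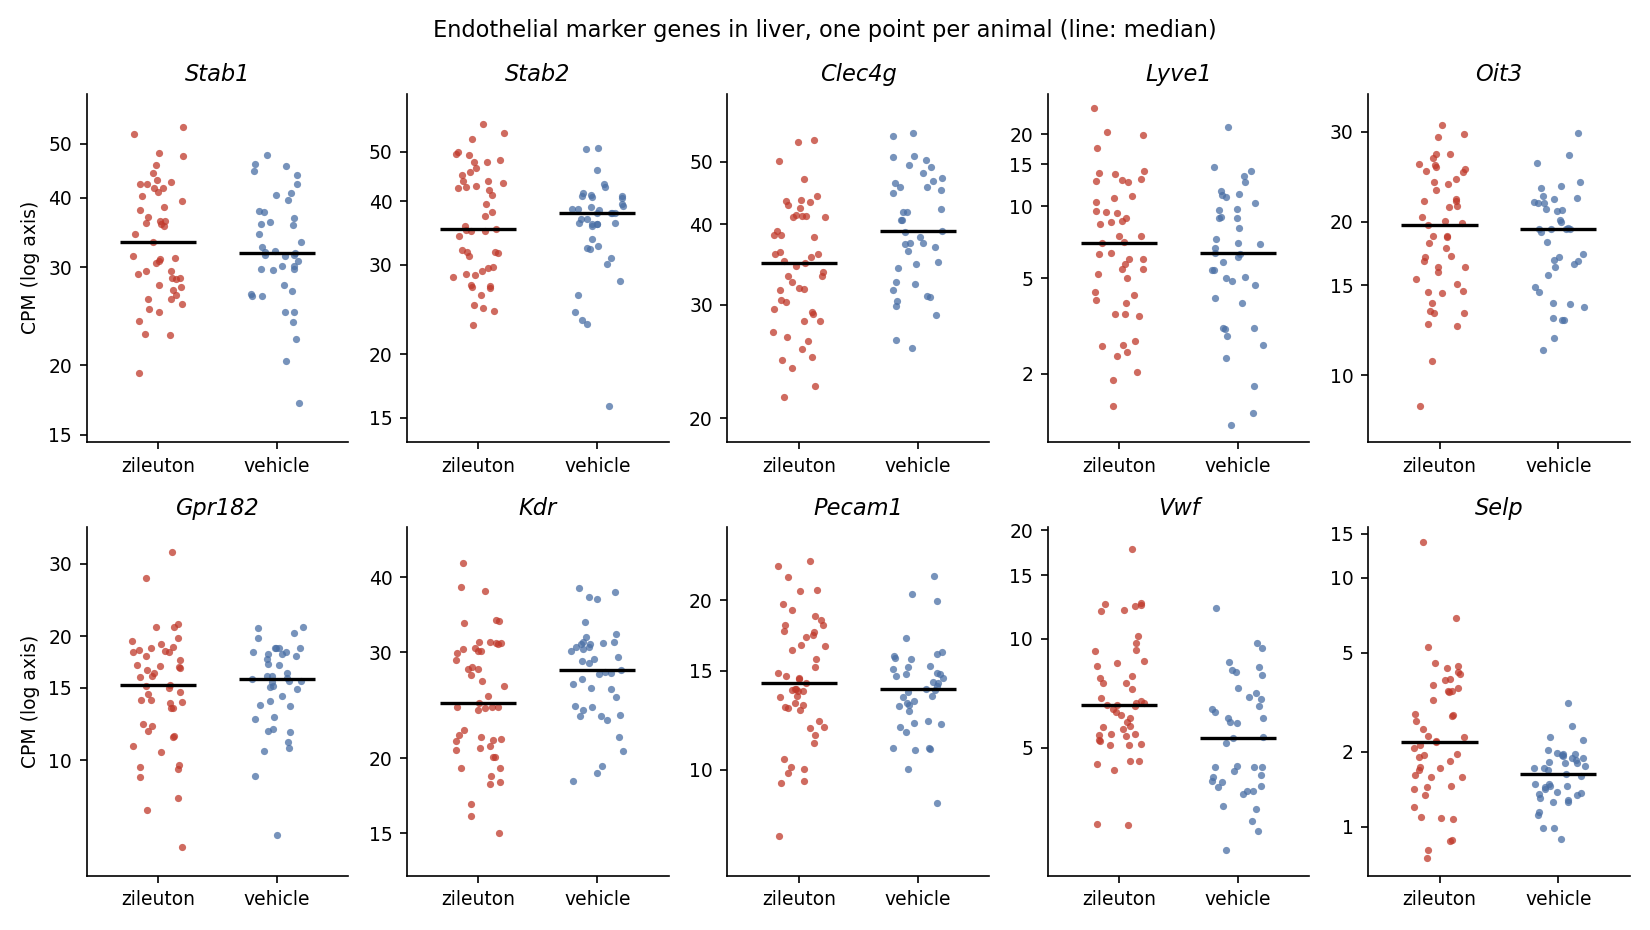
CPM of each member on a log axis, 1 point per animal, for 49 zileuton animals (left, red) and 41 vehicle animals (right, blue), with the median as a line. In the Selp panel zileuton animals reach 13.9 CPM where vehicle animals stop at 3.13 CPM, and in the Clec4g panel the zileuton median of 34.8 CPM lies below the vehicle median of 39.1 CPM.

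The labels give each animal a number, and these numbers were cut here into 8 runs of 50. Within a run vehicle animals held places 13 to 20 and zileuton animals places 25 to 50. Place in the run and exposure therefore cannot be told apart. The labels do not name these runs, and what they stand for is not known. With place in the run as a covariate no member was called, and the log2 fold changes were 0.55 for Selp (adjusted p = 0.416), 0.39 for Vwf (adjusted p = 0.423) and −0.01 for Clec4g (adjusted p = 0.972). The library codes resemble wells of a plate, and their columns were unevenly shared between the groups. With the column as a covariate Selp was still called, while Vwf was at 0.22 (adjusted p = 0.141) and Clec4g at −0.13 (adjusted p = 0.187). Genes of the circadian clock also moved with the groups: all 5 clock genes of the Bmal1 phase were lower after zileuton and all 11 of the opposite phase were higher. Npas2 and Arntl, activators of the clock, were at −2.35 ± 0.33 (adjusted p = 2.67e-08) and −1.73 ± 0.21 (adjusted p = 2.16e-10) on the log2 scale, and their repressor Ciart and their output gene Dbp at 2.88 ± 0.36 (adjusted p = 8.53e-10) and 2.27 ± 0.42 (adjusted p = 8.31e-06). A score of these genes had a median of 1.29 in zileuton animals and −1.55 in vehicle animals, and with it as a covariate no member was called, at 0.60 for Selp (adjusted p = 0.104), 0.36 for Vwf (adjusted p = 0.203) and −0.12 for Clec4g (adjusted p = 0.518). Within zileuton animals the score and Selp had r = 0.086 and rho = 0.119 (permutation test, adjusted p = 0.920 and 0.955), and within vehicle animals r = 0.287 and rho = 0.221 (adjusted p = 0.920 and 0.955). Their part in the differences between the groups was not tested.

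**Figure D3:**
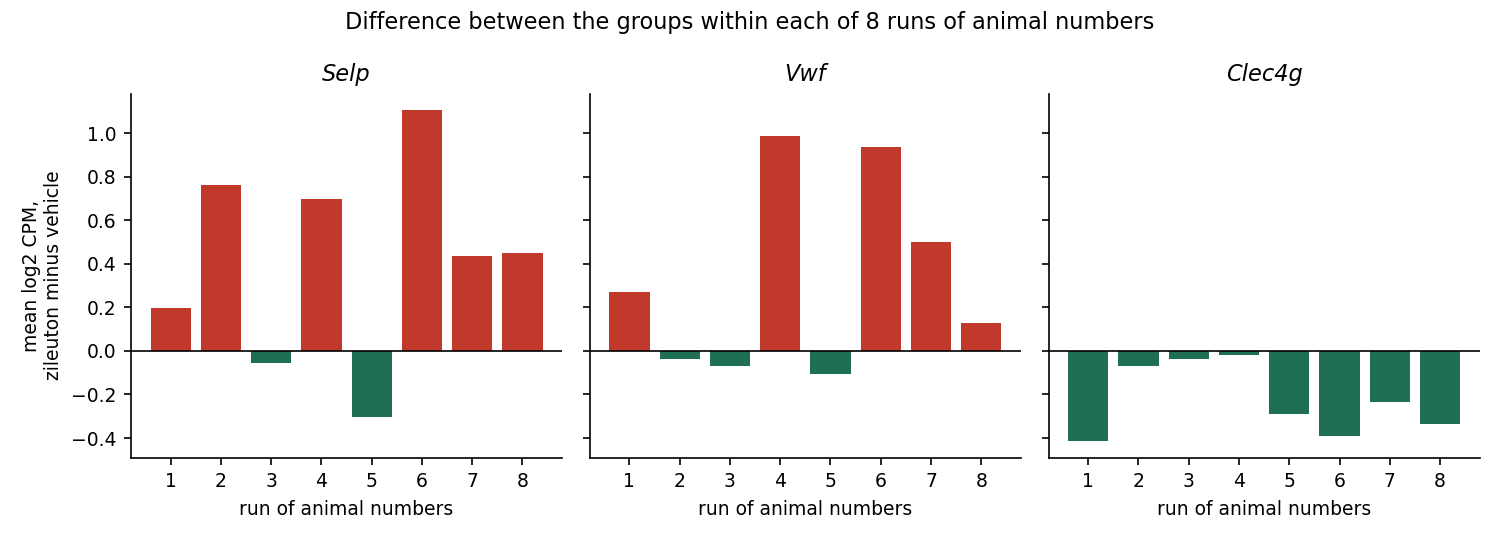
Difference in mean log2 CPM, zileuton minus vehicle, within each of the 8 runs of animal numbers, for Selp, Vwf and Clec4g (bars from 0; red above 0, green below 0). Clec4g is below 0 in 8 of 8 runs, Selp above 0 in 6 and Vwf above 0 in 5.

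Platelets also carry Selp and Vwf, and other cells of the liver can move with the groups, so their markers were read beside these results. Of 11 platelet and megakaryocyte genes, 5 passed the low-count filter and none was called by edgeR or by DESeq2 (0 at an unadjusted p under 0.05). Of all genes tested, edgeR called 29.3%. Their summed level was 4.65 to 16.1 CPM in zileuton livers and 5.60 to 16.7 CPM in vehicle livers, and the median animals of both groups were at 0 for Gp9, Gp6, Gp1bb and Treml1. Itgb3, the most abundant of them, had a log2 fold change of 0.01 ± 0.12 (adjusted p = 0.953). Selp and the summed platelet level had r = −0.038 and rho = −0.057 in zileuton animals (adjusted p = 0.920 and 0.955), and the relation over both groups was not computed. In all, 54 relations of Selp, Vwf and Clec4g with place in the run, the clock score, depth and 6 summed marker lists were computed within the groups, and none passed the adjustment (permutation test). At an unadjusted p under 0.05 there was 1 by Pearson's r and 2 by Spearman's rho. Under 0.05 by both was Vwf with the hepatocyte markers in zileuton animals (r = 0.372, rho = 0.389, adjusted p = 0.469 and 0.336, r without the 2 farthest animals 0.416). Under 0.05 by rho alone was Vwf with the stellate cell markers in vehicle animals (r = 0.153, rho = 0.318, adjusted p = 0.920 and 0.955, r without the 2 farthest animals 0.359).

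Among markers of other liver cells, 1 of 12 Kupffer cell genes was higher (Cd163, the haemoglobin scavenger receptor, log2 fold change 0.46 ± 0.16, adjusted p = 0.0188) and 0 were lower. With run as a covariate Cd163 was at 0.40 and not called (adjusted p = 0.0580), and its call was lost in 9 of 25 other settings in all. The summed Kupffer markers ran from 83.4 to 528 CPM in zileuton livers and from 46.5 to 887 CPM in vehicle livers. Of 13 stellate cell genes 1 was higher and 4 were lower. Col1a1, a fibrillar collagen, was higher (0.47 ± 0.17, adjusted p = 0.0264), and this call was lost without zileuton replicate 29, the animal highest in Selp (adjusted p = 0.0577). It was also lost in 7 of 25 other settings, among them with run as a covariate (0.37, adjusted p = 0.108) and without run 4 (0.22, adjusted p = 0.365). Ngfr (−0.66 ± 0.11, adjusted p = 2.41e-06) and Pdgfrb (−0.28 ± 0.071, adjusted p = 0.00133), receptors of stellate cells, were lower. Of 9 leukocyte genes tested 1 was lower, S100a9, a neutrophil alarmin (−1.29 ± 0.32, adjusted p = 0.000904), which was −0.65 and not called without vehicle replicate 9. Its call was also lost in 9 of 24 other settings. Of 5 cholangiocyte genes tested 1 was lower, Sox9, a ductal transcription factor (−0.86 ± 0.14, adjusted p = 5.79e-07). Summed levels were 33.6 to 225 CPM in zileuton livers and 34.1 to 301 CPM in vehicle livers for leukocytes, and 298 to 703 against 340 to 763 CPM for stellate cells. Of 8 hepatocyte genes 1 was higher, the cytochrome P450 gene Cyp2e1 (0.25 ± 0.080, adjusted p = 0.0135), and 4 were lower, the plasma protein genes Apoa1 (−0.30 ± 0.092, adjusted p = 0.00786) and Ttr (−0.24 ± 0.070, adjusted p = 0.00470) among them. The calls of Cyp2e1 and Apoa1 each held in 20 of 25 other settings, and that of Ttr in 22. The summed hepatocyte markers ran from 71125 to 164022 CPM in zileuton livers and from 87244 to 175505 CPM in vehicle livers. The shares called were 8.33% for Kupffer cell, 38.5% for stellate cell, 11.1% for leukocyte, 20% for cholangiocyte and 62.5% for hepatocyte genes. The background was 29.3% of all genes tested. The part of these other cells in the differences of Selp, Vwf and Clec4g was not tested beyond the relations above. A single library in each group held skeletal muscle RNA, with Acta1, skeletal muscle actin, at up to 985 CPM in zileuton and 1469 CPM in vehicle animals and at 0 in the median animal of both groups, and the same 3 members were called without these 2 libraries.

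Further endothelial genes were read from lists of the same fit. Of 18 further sinusoidal genes tested, 0 were called higher and 3 lower, of 27 pan-endothelial genes 0 were higher and 2 lower, and of 16 genes of large vessels or activated endothelium 1 was higher and 1 lower. These are 16.7%, 7.41% and 12.5% of the genes tested in each list, beside 29.3% of all genes tested (14.4% higher and 14.8% lower). The share called was thus below the background in each list, and the share lower in the sinusoidal list was close to that of all genes. The median log2 fold changes were −0.03, −0.05 and −0.10. Rspo3, a central vein enhancer of Wnt signals, had 2.12, 3.91 and 5.59 CPM in zileuton livers and 2.71, 4.63 and 6.23 CPM in vehicle livers (lowest, median, highest; −0.29 ± 0.067, adjusted p = 0.000363). Gata4, the transcription factor of sinusoidal identity, had 8.87, 13.2 and 20.6 CPM in zileuton livers and 10.5, 15.9 and 22.02 CPM in vehicle livers (−0.26 ± 0.059, adjusted p = 0.000296). The third, Ehd3, fell by 0.18 on the log2 scale (SE 0.067, adjusted p = 0.0325), a call lost in 10 of 25 other settings. S1pr1, the endothelial receptor for sphingosine 1-phosphate, had 34.8, 61.9 and 92.4 CPM in zileuton livers and 52.2, 82.6 and 118 CPM in vehicle livers (−0.35 ± 0.062, adjusted p = 4.95e-06), the lowest adjusted p among the endothelial genes named here. Adgrl4, an adhesion receptor of angiogenic endothelium, was also lower (−0.16 ± 0.063, adjusted p = 0.0416), a call lost in 30 of 90 fits that left out 1 library and in 13 of 25 other settings. The calls of Rspo3, Gata4 and S1pr1 were each lost in 2 of 25 other settings. With the clock score or the place in the run as a covariate, no gene of these 3 lists was called.

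Vcam1, the adhesion molecule that binds the leukocyte integrin VLA-4, was higher, as Selp was. It had 2.89, 7.34 and 41.2 CPM in zileuton livers and 1.79, 5.60 and 10.8 CPM in vehicle livers (0.63 ± 0.14, adjusted p = 0.000300). Icam1, a further leukocyte adhesion molecule, had a log2 fold change of 0.08 (adjusted p = 0.496), and Sele, which encodes E-selectin, was at or below 0.306 CPM in every animal and did not pass the low-count filter. Plvap, which forms the diaphragms of fenestrae and caveolae, was lower (−0.25 ± 0.067, adjusted p = 0.00237). Icam1 and Sele were chosen after their values were seen.

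The ligands and receptors of the VEGF and angiopoietin systems, to which Kdr belongs, held 2 higher and 3 lower genes of 12 tested. This is 41.7%, beside 29.3% of all genes tested. Vegfb, a ligand of VEGFR1, had 9.14, 17.96 and 28.5 CPM in zileuton livers and 9.55, 13.7 and 23.4 CPM in vehicle livers (0.35 ± 0.067, adjusted p = 2.16e-05). Tek, the angiopoietin receptor, was lower (−0.26 ± 0.064, adjusted p = 0.000935). Its ligand Angpt1 was lower (−0.42 ± 0.17, adjusted p = 0.0481) and its partner Tie1 higher (0.20 ± 0.078, adjusted p = 0.0437), but these 2 calls were lost in 48 and 34 of 90 fits that left out 1 library and in 18 and 10 of 25 other settings. The third lower gene was Vegfc, the lymphatic growth factor (−0.14 ± 0.055, adjusted p = 0.0424), whose call was lost in 30 of those 90 fits and in 18 of 25 other settings, RLE scaling (adjusted p = 0.0528) and no low-count filter (adjusted p = 0.0584) among them. Vegfa, the main ligand of the Kdr product, had 87.1 CPM in the median zileuton animal and 88.1 CPM in the median vehicle animal (−0.07 ± 0.050, adjusted p = 0.324). The calls of Vegfb and Tek were lost in 2 and 3 of 25 other settings. No gene of this list was called with the clock score or the place in the run as a covariate.

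Selp also varied more between animals after zileuton. Its mean absolute deviation from the group median was 0.655 on the log2 scale in zileuton animals and 0.288 in vehicle animals (limma on the deviations, adjusted p = 0.0381), and its coefficient of variation was 76.6% and 26.7%. It was 1 of 4 genes called in this test of 11857 genes, a background of 0.0337% (0.0253% larger after zileuton), and no other member was called. The call was close to the threshold: it held in 58 of 90 fits that left out 1 library, with adjusted p from 0.0192 to 0.0731. The deviation was larger after zileuton in 9 of 10 members, Vwf being the exception (0.399 in zileuton and 0.441 in vehicle animals). Besides Selp, Stab2, Pecam1 and Kdr were under an unadjusted p of 0.05 in this limma test (0.0355, 0.0315 and 0.0452). The shares of all genes tested with a larger deviation, or under that p, were not computed. The members also correlate with each other, so these counts do not set them apart.

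Across animals most sinusoidal genes moved together as a group, and Vwf and Selp followed each other as a pair. Pearson's r of log2 CPM was computed for the 45 pairs within each group, 90 relations in all, with permutation p-values adjusted over them. In zileuton animals 29 pairs passed on r, all positive, with a median r of 0.473, and in vehicle animals 22 passed, all positive, with a median r of 0.314. Lyve1 passed with 5 of its 9 partners in zileuton animals and 2 in vehicle animals, and Stab2 with 6 and 3. In vehicle animals the median r of Lyve1 was 0.230 and that of Stab2 0.307. The difference of r between the groups was not tested. Kdr and Oit3 had r = 0.812 and rho = 0.834 in zileuton animals (adjusted p = 5e-05 and 6e-05, r without the 2 farthest animals 0.815) and r = 0.743 and rho = 0.791 in vehicle animals (adjusted p = 5e-05 and 6e-05, r without the 2 farthest animals 0.681). Stab1 and Kdr had r = 0.810 and rho = 0.825 in zileuton animals (adjusted p = 5e-05 and 6e-05) and r = 0.665 and rho = 0.587 in vehicle animals (adjusted p = 8.18e-05 and 0.000274). Without the 2 farthest animals these were 0.801 and 0.562. The smallest p that 100000 permutations can give before adjustment is 1e-05.

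Vwf and Selp had r = 0.575 and rho = 0.581 in zileuton animals (adjusted p = 5e-05 and 0.00018, r without the 2 farthest animals 0.567). In vehicle animals they had r = 0.425 and rho = 0.330 (adjusted p = 0.0123 and 0.0592, r without the 2 farthest animals 0.406), so the rank correlation did not pass there. With the means of the 8 runs removed, r was 0.484 in zileuton and 0.493 in vehicle animals. Neither gene passed with Stab1, Stab2, Kdr, Oit3, Gpr182 or Lyve1 in either group on r. Clec4g, the member that was lower, had r = −0.069 with Selp in zileuton animals (rho = −0.087, adjusted p = 0.785 and 0.663) and r = −0.275 in vehicle animals (rho = −0.360, adjusted p = 0.129 and 0.0365), where only the rank correlation passed. Pecam1 stood between the sets. In zileuton animals it passed with all 9 other members, Vwf (r = 0.583) and Selp (r = 0.422) included, and in vehicle animals with 6, among them Vwf (r = 0.386) but not Selp (r = 0.038).

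**Figure D4:**
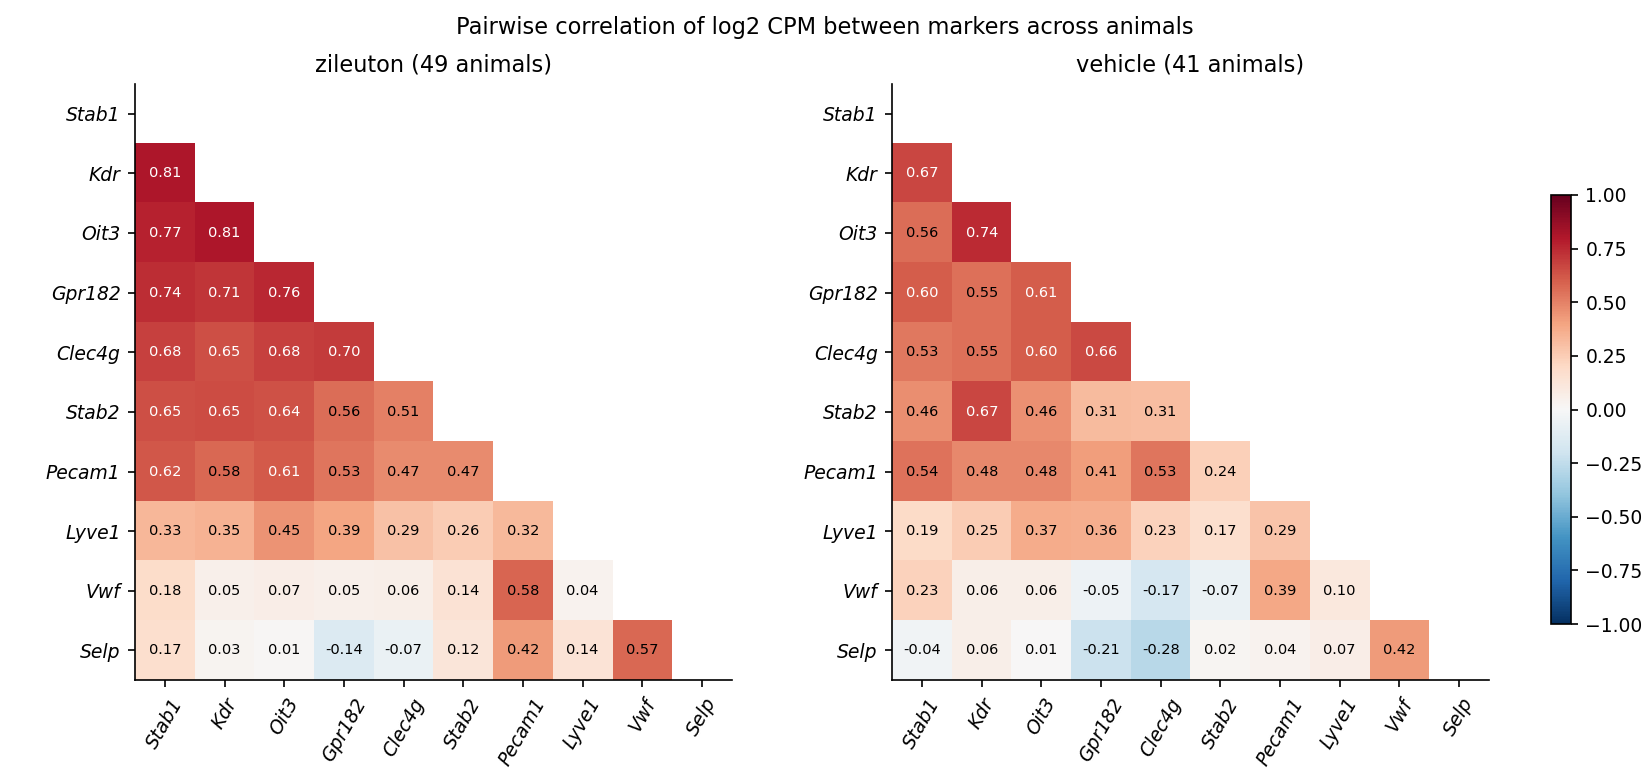
Pearson's r between the members' log2 CPM across 49 zileuton animals (left) and 41 vehicle animals (right), with r printed in each cell. The sinusoidal genes and Kdr form a block of positive values in both panels, while Vwf and Selp correlate with each other (0.57 and 0.42 as printed) and little with that block.

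**Figure D5:**
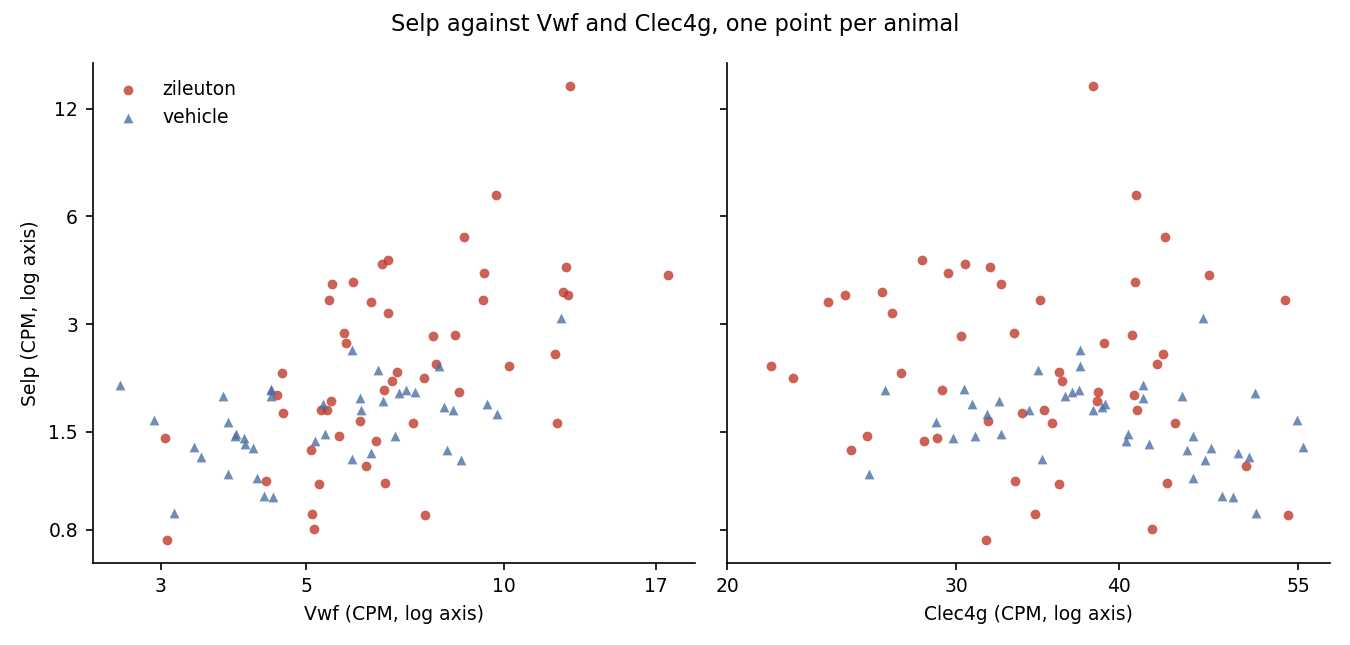
Selp against Vwf (left) and against Clec4g (right) in CPM on log axes, 1 point per animal, zileuton as red circles and vehicle as blue triangles. Selp and Vwf run together in the left panel, with the highest animal at 13.9 CPM of Selp, and the right panel shows no common slope.

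Each member was also set against the mean of the other 9, as residuals from the group means over 90 animals. Stab1 (r = 0.777), Oit3 (0.772), Kdr (0.761) and Pecam1 (0.726) were closest to the rest, Gpr182 (0.673), Clec4g (0.608) and Stab2 (0.578) followed, and Lyve1 (0.383), Vwf (0.226) and Selp (0.146) were farthest. These values come from the same libraries as the pairwise r and are no second observation. They share the library and its depth and carry no test.

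Outside the members, the genes most like their mean over 90 animals were Arhgap31 (r = 0.813), Shank3 (0.810), Flt4 (0.798), Fyn (0.785), Esam (0.785), Elk3 (0.781), Hdac7 (0.777), Fgd5 (0.776), C1qtnf1 (0.775) and Pde2a (0.772). Flt4 encodes VEGFR3 and Esam an endothelial junction molecule. None of these 10 genes was called with zileuton, and Flt4 came nearest (log2 fold change 0.20 ± 0.080, adjusted p = 0.0543). As a description, the median r with the members' mean was 0.521 over 27 pan-endothelial genes, 0.375 over 18 other sinusoidal genes, 0.213 over 13 stellate cell genes, 0.151 over 16 large vessel or activated endothelial genes, 0.151 over 12 Kupffer genes, −0.02 over 8 hepatocyte genes and −0.03 over 11976 genes with a mean of at least 1 CPM. By the same measure, applied gene by gene after the values were seen, Clec4g was nearest to Cd300lg (0.779) and Aqp1 (0.772), Gpr182 to Eng (0.785), Pecam1 to Cdh5 (0.764) and Stab2 to Kdr (0.654). Selp was nearest to Col6a1 (0.575), Col6a2 (0.542) and Postn (0.532), and Vwf to Gpi1 (0.564), Col6a2 (0.533) and Mgp (0.533). Col6a1, Col6a2 and Postn, matrix genes, were themselves higher after zileuton, by 0.88, 0.94 and 1.68 on the log2 scale (adjusted p = 1.79e-06, 3.86e-06 and 6.49e-08). Within the groups, Selp had r = 0.689 with Col6a1, 0.660 with Col6a2 and 0.658 with Postn in zileuton animals, against 0.148, 0.111 and −0.033 in vehicle animals. Vwf had r = 0.617 with Gpi1, 0.649 with Col6a2 and 0.472 with Mgp in zileuton animals, against 0.505, 0.352 and 0.601 in vehicle animals. The pooled values for Selp thus came mainly from zileuton animals, and the difference of r between the groups was not tested. In vehicle animals alone the gene nearest to Selp was Zranb1 (r = 0.583). The genes were picked by r over these same animals, so their r within the groups is a description without a test. It was not computed without the farthest animals.

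Coat colour, a further label that differed between animals, was compared next. With edgeR no member was called for white against agouti coats, for black against agouti coats, or for the interaction of either coat with zileuton, where 0.00755%, 0.0453%, 0.0302% and 0.00755% of all genes were called. Calls were this rare over all genes, so their absence does not set the members apart. The white and black groups held 6 to 9 animals each. The SE for Selp ran from 0.20 (white against agouti coat) to 0.45 (interaction with black coat), so differences could be missed. At an unadjusted p under 0.05 there was 1 member for black coats, Pecam1 (0.23 ± 0.097 higher, adjusted p = 0.690), and 1 for the interaction with black coats, Clec4g (−0.38 ± 0.19, adjusted p = 0.796). Clec4g had a median of 34.6 CPM in 6 black zileuton animals and 47.5 CPM in 6 black vehicle animals. In agouti animals alone Selp was the only member called.

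Total estimated counts ran from 12664579 to 38865109 in zileuton libraries and from 13064928 to 41360187 in vehicle libraries. The counts behind a member's value in 1 library were fewest for Selp, at 17, and reached 1963 for Clec4g. The exons of Stab1, Gpr182 and Selp overlap on the opposite strand with Nt5dc2, Zbtb39 and Gm16548, which are also in the tables. Those of Clec4g, Stab2 and Selp overlap likewise with Gm16553, Gm16268 and Gm16587, antisense genes that are not among the measured genes. Whether strand was used in counting is not given in the sources used here, so reads of these overlaps cannot be assigned with certainty.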

How the data were processed

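Liver RNA of 49 zileuton and 41 vehicle animals was measured, 1 library each. The TruSeq RNA kit v2 and a HiSeq 2000 were used, and RNA with an integrity number under 8 was excluded, per the labels' protocols. Partek, STAR, DESeq2 and mm10 appear in the submitters' processing notes, without versions. Which tool counted reads, on which annotation and strand, is not given in any source used here. The deposited raw table holds estimated counts per gene, of which 76.7% were whole, and they were rounded for the count models. In the other deposited table, a signal per gene, the authors had divided the rounded counts by 1 size factor per animal. The ratio of the tables was constant within a library to 5.0e-06 above 50 counts.

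The fit used edgeR 4.0.16 (TMM, filterByExpr, robust quasi-likelihood F test, two-sided) over 13248 genes. The spread test used limma 3.58.1 on absolute deviations of log2 CPM (prior count 2) from the group median, where the mean log2 CPM was 0 or more. Both tests were checked on simulated data first. The spread test narrowly missed the recovery first required of it there, and that requirement was then lowered. DESeq2 1.42.0 was an alternative. The median zileuton library held 25083838 estimated counts and the median vehicle library 26105475, and the common biological coefficient of variation was 32.1%. Symbols of 17848 genes (97.9%) matched 1 entry of GENCODE M21 on GRCm38, which is mm10.

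The members and lists were chosen with earlier results of these data known. All members are named, together with, in each other list, the 2 called genes that changed most each way or else the most abundant, and the 10 genes most like the members' mean. Further genes of a count of 5 or fewer were named after their values were seen. Replicates are animals numbered in accession order, so the numbers pair nothing. Figures used matplotlib.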

Additional observations from a re-analysis of the deposited data

Results flagged for a closer look

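Within coat and exposure groups of 4 to 10 animals, 40 groups of values were examined and 6 held a lowest or highest animal that stood apart from the others by Dixon's 95% criterion, which chance passes in about 1 of 20 groups. In white animals, Vwf reached 17.7 CPM in 1 of 9 zileuton animals, which was also the highest value of the gene in the series. Among 6 white vehicle animals the lowest were apart at 17.1 CPM for Stab1, 8.71 CPM for Pecam1 and 6.58 CPM for Gpr182, all 3 in the same animal. Among 6 black vehicle animals the highest were apart at 21.6 CPM for Lyve1 and 3.13 CPM for Selp. The last is also the highest Selp value of all vehicle animals, and that animal was highest of them in Vwf too (12.2 CPM).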

How the results depend on the processing

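The 3 members called were 3 under RLE and upper quartile scaling, both other low-count filters, DESeq2, limma-voom, the authors' normalized values with a pseudocount of 1 or 10, and with coat, run or the row of the well-like library code as covariates. They were 2, Vwf and Selp, without the 9 shallowest libraries or without run 1, 5, 6 or 8, and Clec4g and Selp without run 4. They were also 3 in each of 90 fits that left out 1 library, where the genes called ranged from 3754 to 4082 (3878 in the full fit). In those fits the log2 fold change ran from 0.61 to 0.76 for Selp, from 0.33 to 0.42 for Vwf and from −0.20 to −0.17 for Clec4g. The members called numbered 1, Selp, with the column of that code as a covariate and in agouti animals only (fewer animals). They numbered 0 with the clock score as a covariate, where 384 genes were called, and 0 with the place in the run, where 217 were called. Both covariates follow the groups. Plvap was 0.00676, Apoa1 0.0914 and Ttr 0.0424 with the place in the run, and Cyp2e1 was −0.0523 with the clock score, opposite in sign to the full fit and none of them called. The cause was not tested. The share of called genes that were higher was 49.4%, against 76.5% with the place in the run and 62.2% with the clock score. The spread call of Selp was tried without each library, an alternative chosen after seeing the data, and members called ranged from 0 to 1. No paired analysis was possible because the replicate numbers were given in accession order and pair no animals. Depth limited Selp most, which had as few as 17 counts in a library.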
